A study of Drosophila melanogaster with 4 samples.

Results

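The regions described here are the peaks of the protein CG8478 that lie outside the assembled chromosome arms, on the heterochromatic and unplaced scaffolds of the Drosophila melanogaster genome. They were all rows of the deposited peak list whose sequence name was U or Uextra or ended in Het. The rule selected 330 of 3284 peaks, 10.0% of the list (Wilson 95% interval 9.07 to 11.1%), and used no measured value. For comparison, the assembled arms (both arms of chromosomes 2 and 3, X and the small chromosome 4) held 2938 peaks, and the 16 mitochondrial peaks were left out. The samples were 2 ChIP libraries made with a rabbit polyclonal antibody to CG8478 and 2 input libraries of unprecipitated DNA, all from S2-DRSC cells, a male line derived from late embryos. The labels name no treatment, and no group without the protein was among them. The list gives a position and a score per peak for the whole series and no value per library, so read depth was unknown, no replicate error could be given, and nothing below was tested between libraries. Intervals cover counting error only.

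Heterochromatin is the densely packed, gene-poor part of the genome around the centromeres, on the Y chromosome and at the chromosome tips, and in flies it is made largely of satellite repeats and of transposable elements in various states of decay. Such sequence is hard to assemble. Release 5 of the fly genome therefore kept it in separate sequences: scaffolds ending in Het had been assigned to a chromosome but not joined to its arm, U collected scaffolds with no assigned chromosome, and Uextra collected the smaller and less certain leftovers. Neighbouring positions within U or Uextra need not be neighbours in the chromosome, and copies of 1 repeat can occur in several places of these collections. Short reads from such copies cannot be placed uniquely, and the sources used here do not say how they were handled. The part of CG8478 used to raise the antibody contains a C2H2-type zinc finger, a fold that many DNA-binding proteins use to contact DNA. No genome sequence of release 5 was used, so the repeats and genes at the peaks were not analysed here.

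Uextra held most of the scaffold peaks. It had 227 (68.8%), between positions 439264 and 27778793. U had 68 (20.6%), between 282024 and 9933222. The scaffolds assigned to chromosomes had 35 together (10.6%): 12 on 2RHet, 10 on 3LHet, 6 on 3RHet, 4 on YHet and 3 on 2LHet. No peak was listed on XHet. The lengths of these sequences were not used, so counts were set against the stretch from the first to the last peak. Over that stretch the density per Mb was 8.30 on Uextra (95% Poisson interval, exact, 7.26 to 9.46), 7.05 on U (5.47 to 8.93), 6.93 on 2RHet (3.58 to 12.1), 5.99 on 3LHet (2.87 to 11.02) and 3.01 on 3RHet (1.11 to 6.56). The interval of 3RHet ends below that of Uextra, and all other pairs of these 5 intervals overlap. The arms had 24.8 peaks per Mb (23.9 to 25.7) by the same measure, and the lowest of the large arms, 2L, had 17.1 (15.5 to 18.9), so the 5 scaffold sequences all lay below every large arm. Unsequenced stretches inside the scaffolds count as length here, and their extent was not measured. On YHet and 2LHet all peaks fell within a few kb, and a density there would have no meaning.

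**Figure D1:**
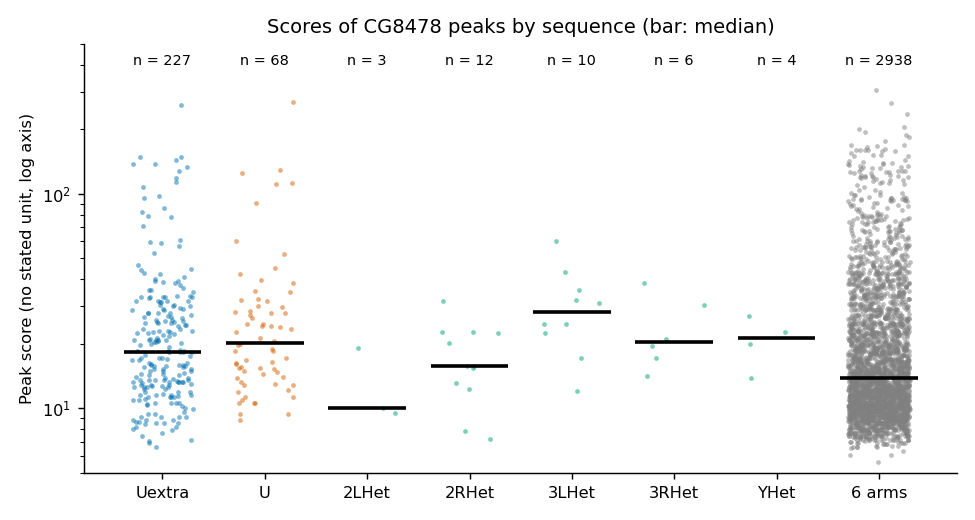
Score of every peak by sequence, on a log axis, with 1 point per peak and a bar at the median; the 6 arms are pooled in grey. The medians of 6 of the 7 scaffold sequences lie above that of the arms, 13.9, and 2LHet, with 3 peaks, lies below it at 10.0.

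Scaffold peaks scored higher than arm peaks in the middle of the distribution. The score is the value the authors' caller gave each peak; its statistic is not stated, and it serves here only to rank and compare peaks within the list. The scaffold median was 19.2 (95% order-statistic interval 17.1 to 21.0; quartiles 13.03 and 29.9), against 13.9 (13.6 to 14.2; quartiles 10.3 and 23.8) on the arms. Among scaffold peaks 224 of 330 (67.9%, Wilson 62.7 to 72.7%) scored above the median of the whole list, against 47.8% of arm peaks (46.0 to 49.6%). Chromosome 4, with 27 peaks, came nearest of the single arms. Its median was 17.7 (12.97 to 21.03) and 63.0% of its peaks (44.2 to 78.5%) lay above the list median, intervals that overlap those of the scaffolds. The medians of the large arms ran from 12.9 on 2R to 15.0 on 2L. The medians were 18.3 on Uextra (16.01 to 20.9), 20.2 on U (16.2 to 24.7), 15.7 on 2RHet (12.3 to 22.7), 28.0 on 3LHet (17.1 to 43.3) and 20.3 on 3RHet (14.2 to 38.4). The scaffolds therefore did not separate from one another beyond their intervals. The 4 scores on YHet were 13.9, 19.95, 22.8 and 26.9, and the 3 on 2LHet were 9.48, 10.0 and 19.1.

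Scaffold peaks were scarce among the lower scores of the list, and their share above its median was higher but uneven. With the list cut into 10 equal parts by score, scaffold peaks made up 4.57% to 6.69% of each of the 4 lowest parts. Their share then rose to 17.7% (58 of 328, Wilson 13.9 to 22.2%) in the eighth part, with scores from 21.7 to 29.2, and was 10.6% (35 of 329, 7.75 to 14.4%) in the highest part, close to their share of the whole list. At the very top, 2 of the 25 strongest peaks, 9 of the 50 strongest and 17 of the 100 strongest were on scaffolds. The last 2 of these shares exceeded their share of the whole list. Scores of at least 100 were found for 4.85% of scaffold peaks (16 peaks, Wilson 3.01 to 7.73%) and 2.52% of arm peaks (74 peaks, 2.01 to 3.15%), intervals that overlap. Among the 1642 highest-scoring peaks of the list, the medians of scaffold and arm peaks were 25.1 and 24.7. The peaks compared there were of unlike width, with medians of 392.5 and 675.5 bp. No peak on a Het scaffold reached 100. The highest there was the 3LHet peak at 715380 to 715970, with a score of 60.6.

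Peaks on scaffolds were also narrower. The median width was 318 bp (95% order-statistic interval 297 to 338) against 411 bp (396 to 423) on the arms. Widths under 250 bp made up 33.3% of scaffold peaks (110 peaks, Wilson 28.5 to 38.6%) and 19.1% of arm peaks (17.7 to 20.6%). At the other end, 3 scaffold peaks were 1 kb or wider, 0.909% (0.310 to 2.64%), against 12.9% on the arms (379 peaks, 11.7 to 14.2%). All 3 lay on U: 7871007 to 7872532 (1526 bp, score 125), 5302336 to 5303453 (1118 bp, score 111) and 5901860 to 5902867 (1008 bp, score 24.7). None of the 227 Uextra peaks was that wide, and the widest, at 7074298 to 7075201, spanned 904 bp and scored 77.7.

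Because wider peaks tended to score higher (Spearman correlation 0.579 on scaffolds and 0.754 on the arms), scores were compared at equal width. Within each of the 7 width classes below 1 kb the scaffold median exceeded that of all arm peaks. For 201 to 249 bp the medians were 13.9 (95% interval 12.9 to 15.6, 110 peaks) on scaffolds and 9.68 (9.43 to 9.99, 561 peaks) on the arms. For 300 to 399 bp they were 19.6 (15.8 to 24.0, 66 peaks) and 11.9 (11.5 to 12.2, 506 peaks). For 400 to 499 bp they were 25.8 (22.7 to 31.8, 48 peaks) and 14.7 (14.2 to 15.4, 338 peaks). The gap was widest at 600 to 799 bp, where 21 scaffold peaks had a median of 86.4 (26.9 to 119) and 335 arm peaks one of 19.6 (18.6 to 21.0). That gap came mostly from Uextra, with a median of 111 (14 peaks). U had 32.45 (5 peaks) and the Het scaffolds 23.5 (2 peaks). Of these 7 classes, that of 800 to 999 bp, with 11 scaffold peaks (median 70.5, interval 19.1 to 134), was the only one whose scaffold interval overlapped that of the arms (23.8 to 30.1). Its 2 Het peaks had a median of 20.7, below the arm median of 27.4.

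**Figure D2:**
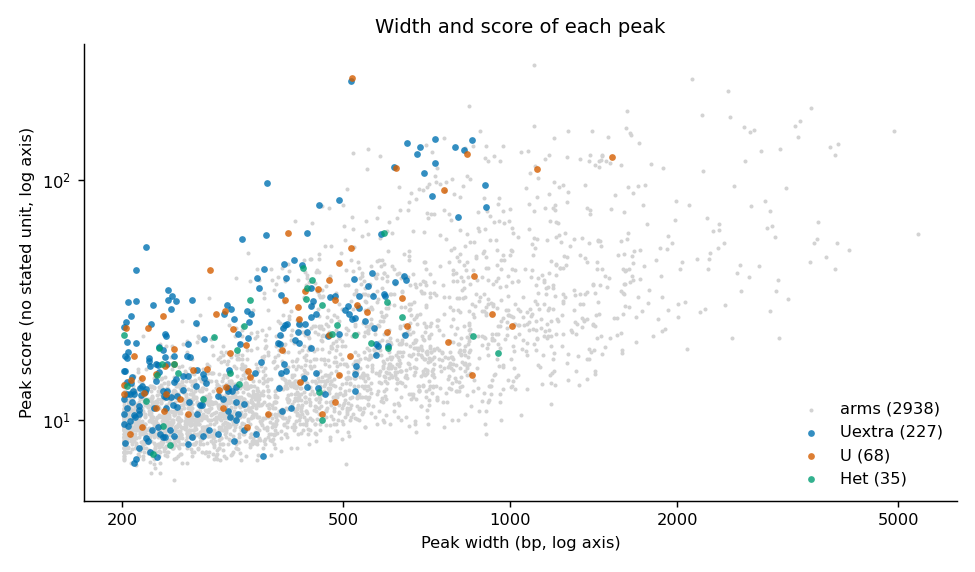
Width and score of each of the 330 scaffold and 2938 arm peaks, both on log axes. Scaffold peaks (coloured) lie mostly in the upper part of the cloud of arm peaks (grey) at their width, with 278 of 330 above its middle and 109 above its 95th percentile, end at 1526 bp while arm peaks reach 5423 bp, and include an isolated pair near 500 bp with scores of 268 and 260.

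To put this on 1 scale, each scaffold score was expressed as its percentile among arm peaks whose width differed by at most 10%. The median percentile was 85.7 (95% order-statistic interval 83.3 to 89.9), where 50 would mean no difference, and 278 of 330 scaffold peaks (84.2%, Wilson 79.9 to 87.8%) lay above 50. The median was 85.7 on Uextra (82.6 to 89.6), 89.0 on U (77.4 to 93.5) and 85.1 on the Het scaffolds (71.3 to 95.1). All 10 peaks on 3LHet, all 6 on 3RHet and all 4 on YHet were above 50, as were 8 of 12 on 2RHet and none of the 3 on 2LHet. For scale, the peaks of each arm against those of the other arms gave medians from 42.1 on 2R to 55.1 on 2L.

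Arm peaks often lie in crowded groups and most scaffold peaks lie alone, so the comparison was repeated against the 583 arm peaks with no other peak within 10 kb. The median percentile was then 80.7 (74.2 to 84.2), and 76.4% of scaffold peaks (71.5 to 80.6%) lay above 50. On the Het scaffolds the median was 80.4 (52.2 to 89.8), and 24 of 35 peaks (68.6%, 52.0 to 81.4%) lay above 50. These were all 10 on 3LHet, 5 of 6 on 3RHet, 2 of 4 on YHet, 7 of 12 on 2RHet and none of 3 on 2LHet. Isolated arm peaks had higher medians than arm peaks in general in every class from 250 bp upward, and at 500 to 599 bp their median of 31.1 (20.4 to 35.5, 65 peaks) was above the scaffold median of 28.8 (24.4 to 33.0, 33 peaks), with overlapping intervals. At 600 to 799 bp the median of isolated arm peaks was 28.8 (21.7 to 34.5, 87 peaks), which overlaps the wide scaffold interval. Below 500 bp the scaffold medians stayed above those of isolated arm peaks, with intervals that do not overlap in any of the 4 classes. The number of copies of the scaffold sequences in this cell line, the input signal over them and the treatment of reads that fit several places were not measured in the values used here.

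**Figure D3:**
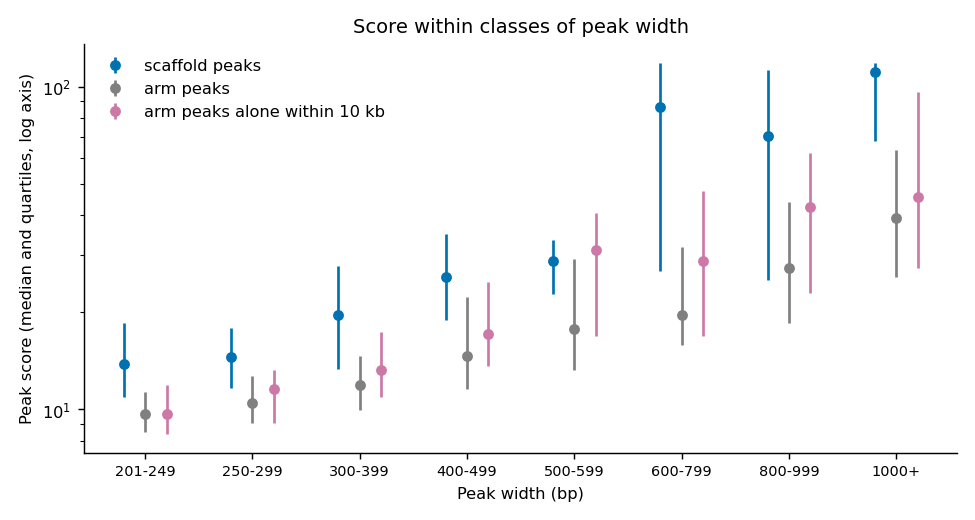
Median score (point) and quartiles (bar), on a log axis, in 8 classes of peak width for scaffold peaks, all arm peaks and arm peaks with no other peak within 10 kb. The scaffold point is the highest of the 3 in every class except 500 to 599 bp, where isolated arm peaks reach 31.1 against 28.8; the class of 1000 bp or more holds only 3 scaffold peaks.

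The strongest scaffold peaks were a pair on the unplaced sequences. One lay on U at 2605829 to 2606347, was 519 bp wide and scored 268, rank 2 of the whole list. Its counterpart on Uextra, at 22939324 to 22939839, was 516 bp wide and scored 260, rank 4. They differed by 3 bp in width and by 7.32 in score, and the next scaffold peak was far below them at 149. No arm peak of comparable width came near these scores. Of 277 arm peaks from 464 to 571 bp the median score was 16.4 and the highest 135, and the other 35 scaffold peaks of that width reached 82.6 at most. Whether both positions hold copies of 1 sequence could not be examined without the genome.

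Below that pair, 10 Uextra peaks of 600 bp or more scored at least 100, with widths from 617 to 852 bp and scores from 108 to 149. Another 4 Uextra peaks of 600 bp or more scored between 50 and 100, so the lower bound of the group is the chosen cut. The 3 highest lay at 24193691 to 24194422 (732 bp, score 149), 5148409 to 5149260 (852 bp, score 148) and 2128167 to 2128818 (652 bp, score 143). They were spread over the collection from 2128167 to 27340517, and 9 of the 10 had no other peak within 10 kb. Uextra had 16 peaks in that width range, these 10 among them, while 4 of 377 arm peaks of the same widths had scores in the same range. The group was not limited to Uextra. The U peaks at 7544321 to 7545155 (835 bp, score 129) and 4022433 to 4023054 (622 bp, score 112) lay in both ranges too. Taking all peaks of 600 bp or more, 10 of 19 on Uextra scored at least 100 (52.6%, Wilson 31.7 to 72.7%), against 4 of 12 on U (33.3%, 13.8 to 60.9%), none of 4 on the Het scaffolds and 70 of 917 on the arms (7.63%, 6.09 to 9.53%). Among isolated arm peaks of that width the share was 22 of 188 (11.7%, 7.86 to 17.1%). The group was noticed in the list and then counted, so these shares describe it and do not test it.

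The 25 strongest scaffold peaks scored 60.6 to 268, and their median width was 722 bp, with 19 on Uextra, 6 on U and none on a Het scaffold. Of these, 21 had no other peak within 10 kb. Besides the member of the pair and the peaks of 1526 and 1118 bp described above, the U peaks among them were at 7544321 to 7545155 (835 bp, score 129), 4022433 to 4023054 (622 bp, score 112) and 5288497 to 5289257 (761 bp, score 91.1). The narrowest of the 25 was a Uextra peak of 365 bp at 13398684 to 13399048, which scored 97.4 and exceeded all 319 arm peaks within 10% of its width. The scaffold peaks with a score of 100 or more had a median width of 715 bp (range 516 to 1526), and the arm peaks with such scores one of 1397 bp (range 520 to 4908).

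**Figure D4:**
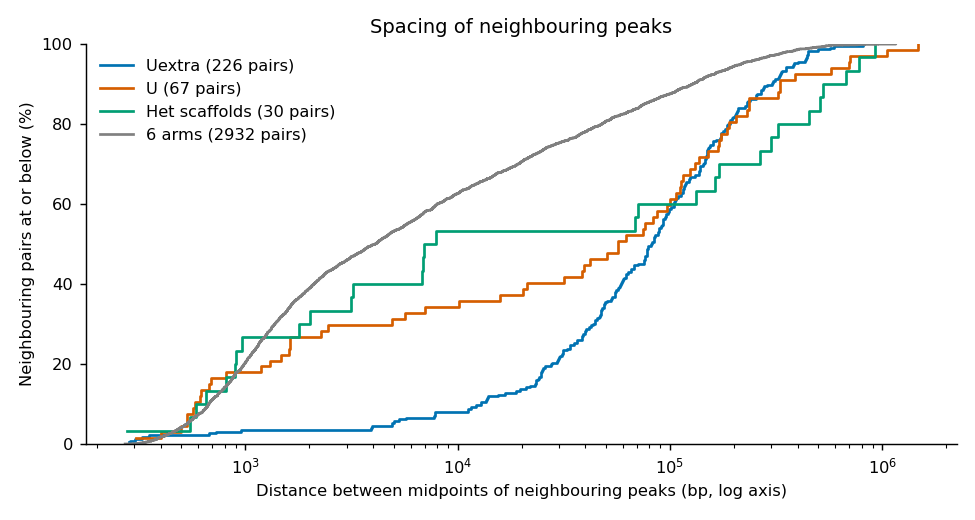
Cumulative share of neighbouring peak pairs by the distance between their midpoints (log axis) for Uextra, U, the pooled Het scaffolds and the 6 arms. At 10 kb the curves stand at 7.96% for Uextra, 34.3% for U, 53.3% for the Het scaffolds and 62.6% for the arms.

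Spacing differed between the scaffolds. The median distance between midpoints of neighbouring peaks was 81698 bp on Uextra (226 pairs), 57014.5 bp on U (67 pairs) and 7390 bp on the pooled Het scaffolds (30 pairs), against 4084 bp on the arms (2932 pairs). The Het scaffolds were of both kinds: on 3LHet and 3RHet the medians were 132920 bp (9 pairs) and 524956 bp (5 pairs), with no neighbours within 1 kb, and all close Het neighbours were on 2RHet, YHet and 2LHet. Only 3.54% of Uextra neighbours were within 1 kb (8 pairs, Wilson 1.80 to 6.83%), while the share was 17.9% on U (12 pairs, 10.6 to 28.7%) and 26.7% on the Het scaffolds (8 pairs, 14.2 to 44.4%). The arms had 20.4% (18.9 to 21.9%), a share that lies outside the Uextra interval and inside those of U and the pooled Het scaffolds. The intervals of 3LHet and 3RHet alone, with 9 and 5 pairs, include it too. For all scaffolds together the share was 8.67%, and its place below the arms depended on the weaker calls. Among the 1642 highest-scoring peaks, 224 of them on scaffolds, it was 7.83% on scaffolds and 5.79% on the arms. No interval was computed for these shares, so a turned order is not established. With peaks at most 10 kb apart joined into chains, 194 of 227 Uextra peaks stood alone (85.5%, Wilson 80.3 to 89.5%), as did 33 of 68 U peaks (48.5%, 37.1 to 60.2%) and 11 of 35 Het peaks (31.4%, 18.6 to 48.0%). On the arms 19.8% did (18.4 to 21.3%). Because Uextra joins unrelated fragments, a distance there may span several of them. Over all scaffolds the median score was 22.8 for the 92 peaks that were not alone and 17.0 for the 238 that were. Uextra (25.1 and 16.9) and U (24.2 and 15.6) had that order, and the pooled Het scaffolds had the opposite one (19.8 and 22.4). The pooled Het order was not that of the single scaffolds. On 2RHet (15.75 and 15.44), 3LHet (31.6 and 24.8) and 3RHet (24.9 and 17.7) peaks that were not alone had the higher median. YHet and 2LHet had no peak alone. On the arms the medians were 13.5 and 15.9 in the same order of groups, and of the single arms chromosome 4 alone had the higher median for peaks that were not alone (17.9 and 15.02).

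Chains of 5 or more peaks held 49.3% of arm peaks but 6.06% of scaffold peaks (20 peaks, Wilson 3.96 to 9.18%), in 2 chains. No Uextra peak lay in such a chain. The share was 19.1% on U (13 of 68, 11.5 to 30.0%) and 20% on the Het scaffolds (7 of 35, 10.0 to 35.9%), all of the latter on 2RHet. The larger of the 2 chains was on U from 5288497 to 5303453 and had 13 peaks in 15.0 kb, which covered 37.8% of it. Its first peak scored 91.1 and its last, at 5302336 to 5303453, scored 111. The second peak scored 42.5 and the last but one 39.9, and the 9 between these scored 16.2 to 28.5. Raw scores were thus highest at both ends, where peaks were also widest. The first was 761 bp wide and the last 2 were 860 and 1118 bp, against 203 to 417 bp for the 9. Among arm peaks of like width the first lay at percentile 93.6 and the last 2 at 73.6 and 94.2. The 9 lay at percentiles 85.3 to 100, so the rise at the ends was absent at equal width. The median score of the chain, 27.1, compared with 13.1 for the median of the 141 such chains on the arms, of which 7 had a higher median than the U chain.

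The other long chain lay on 2RHet from 2086793 to 2093981, with 7 peaks in 7.19 kb and scores from 7.23 to 22.8. It held 7 of the 12 peaks of that scaffold, and the other 5 lay between 361787 and 1158703. The 4 YHet peaks formed a single chain from 71738 to 76338, in 2 close pairs. Those pairs were 72494 to 73130 (637 bp, score 26.9) beside 71738 to 72261 (524 bp, score 22.8), and 75844 to 76076 (233 bp, score 19.95) beside 76135 to 76338 (204 bp, score 13.9). On 2LHet the 3 peaks lay nearly end to end between 123913 and 125806 and covered 86.9% of that stretch. On 3LHet and 3RHet, by contrast, no chain had more than 2 peaks.

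**Figure D5:**
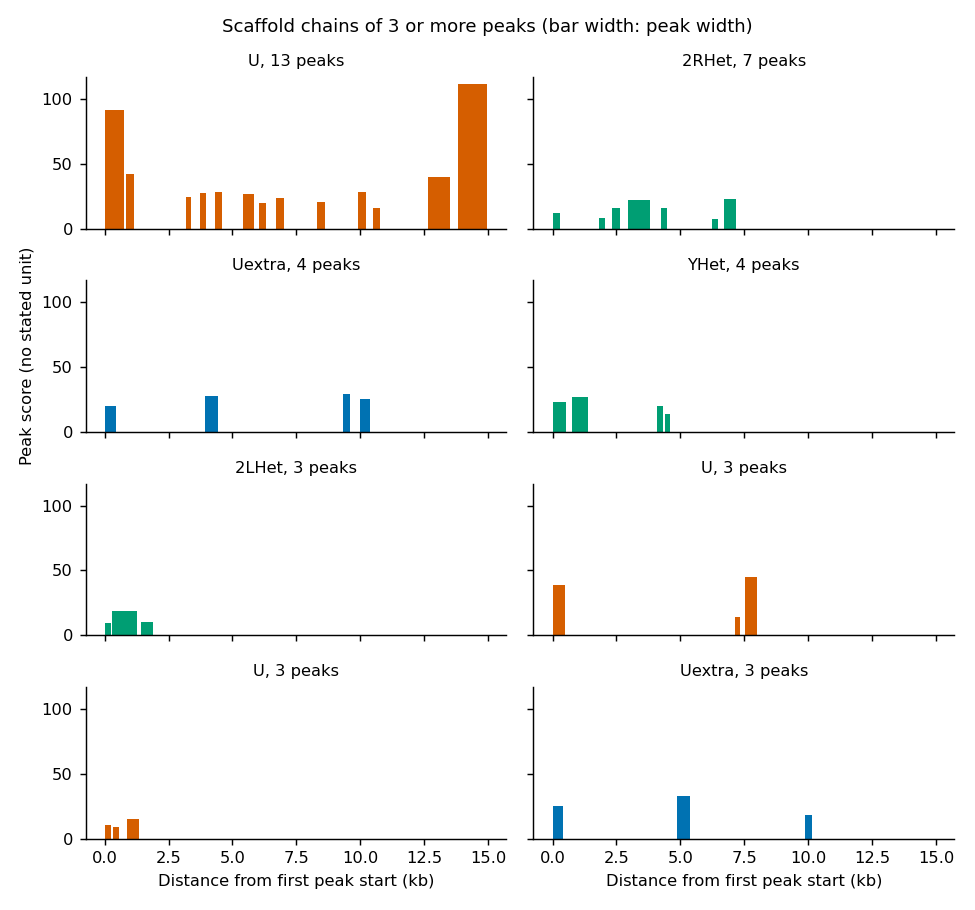
All 8 scaffold chains of 3 or more peaks, each drawn from the start of its first peak, with bar width equal to peak width in kb and bar height equal to score. In raw score the U chain of 13 peaks rises at both ends, to 91.1 and 111, where its peaks are also widest. The 7 peaks on 2RHet stay at or below 22.8.

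Some distances between neighbours recurred on different scaffolds. Of 29 neighbouring pairs with midpoints between 1 and 10 kb apart, 11 were more than 5 kb apart. In 4 of them the distance was close to 6.9 kb: 6767 bp on 2RHet, 6886 bp on 3RHet, 6913.5 bp on 3LHet and 6992 bp on U. In another 4 it was close to 7.8 kb: 7769.5, 7785 and 7841 bp on Uextra and 7867 bp on 3RHet. In 3 of these 8 pairs the peaks were nearly equal in width. On 3LHet they were 67224 to 67646 (423 bp, score 43.3) and 74135 to 74562 (428 bp, score 32.1), on 3RHet 845722 to 846179 (458 bp, score 30.3) and 852617 to 853056 (440 bp, score 38.4), and on Uextra 1534163 to 1534503 (341 bp, score 27.8) and 1542000 to 1542348 (349 bp, score 39.1). In the other 5 pairs the widths differed more: 339 and 601 bp on 2RHet, 471 and 201 bp on U, 335 and 232 bp and 204 and 314 bp on Uextra, and 248 and 322 bp on 3RHet. Among the 55 pairs of these 11 distances, 11 (20%) differed by at most 2%, against 5.88% of pairs of the 274 arm distances in the same range. A distance near 4.9 kb also occurred in a row on Uextra, where peaks at 14537678 to 14538104, 14542564 to 14543046 and 14547565 to 14547812 were 4914 and 4883.5 bp apart. On U, peaks of 835 and 451 bp were 4899 bp apart. Among the 18 scaffold distances from 1 to 5 kb, 8 of 153 pairs (5.23%) differed by at most 2%, against 2.64% on the arms. These groups of distances were seen first and counted afterwards, the numbers are small, and no test was made.

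Recurring widths were mostly those of narrow peaks. The 330 scaffold peaks had 219 distinct widths, of which 64 occurred more than once, in 175 peaks (53.0%). On the arms 2484 of 2938 peaks (84.5%) had a recurring width, but this share rises with the number of peaks. Of the 175 scaffold peaks, 119 were narrower than 300 bp. Among all scaffold peaks 33.3% were 201 to 249 bp wide and 11.5% were 250 to 299 bp. The narrowest width in the list, 201 bp, was the most frequent, with 8 scaffold peaks (2.42%) and 72 arm peaks (2.45%), followed by 204 and 248 bp with 6 scaffold peaks each. Over all pairs of scaffold peaks 0.361% were equal in width, against 0.210% of pairs of arm peaks and 0.261% of pairs with 1 peak of each kind. Within the 7 width classes below 1 kb the scaffold share was below that of the arms in 3: 201 to 249 bp (2.35% and 3.20%), 300 to 399 bp (0.793% and 1.06%) and 800 to 999 bp (no scaffold pair and 0.502%). It was above in 4: 250 to 299 bp (2.13% and 2.02%), 400 to 499 bp (1.33% and 0.999%), 500 to 599 bp (1.14% and 1.01%) and 600 to 799 bp (0.952% and 0.500%, from 2 scaffold pairs). The share of equal widths thus differed in both directions once peaks of like width were compared. Widths of 417, 430, 437, 492 and 526 bp were each shared by 3 scaffold peaks, and the widest that recurred was 652 bp, with scores of 143 on Uextra and 24.7 on U. None of the 196 scaffold pairs of equal width were also equal in score. On the arms, with 9068 pairs of equal width, 97 of 2938 peaks shared both width and score with another. Whether the scaffolds differ from the arms in this was not tested.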

How the data were processed

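The study mapped CG8478 by ChIP-seq in 2 ChIP and 2 input libraries, grouped by sample title. The deposited data were 1 peak list; its source column names MACS, and positions are on FlyBase release 5, per the file headers. Per the submitters' processing notes, which state no roles, the build was BDGP5 and the tools were MACS2, BWA and CASAVA (versions 1.7.0.3 and 1.7.0.2). The sources used here give neither threshold, control nor pooling of replicates. Scores are those deposited by the authors, and their statistic is not stated; counts of reads, depth and replicate error could not be computed.

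Positions were read as 1-based inclusive. Shares carry Wilson intervals, densities exact Poisson intervals and medians order-statistic intervals (95%, from 6 values), all for counting error only and treating peaks as independent, which neighbouring peaks are not. No test was run, because peaks are not replicates; overlap of intervals is given as a description. Percentiles at equal width used arm peaks within 10% of the width, with ties counted in equal parts above and below. Chains joined peaks at most 10 kb apart. The functions were tested on simulated peak lists. Python 3.11.15 was used with pandas 2.3.3, scipy 1.17.1, numpy 2.4.6 and, for plots, matplotlib 3.10.9.

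The peaks named are the strongest, the widest, those of the Het scaffolds, members of the longest chains and, chosen after their values were seen, the pairs at recurring distances. Members, measures and comparisons were chosen with earlier results of these data known. The gene table at hand is of another release, so no gene or sequence is given.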

Additional observations from a re-analysis of the deposited data

How the results depend on the processing

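Of 27 alternatives for 7 results, 11 gave a value within the 95% interval of the reported one. Restricting the list to its 1642 highest scores raised the share of scaffold peaks to 13.6%, their median score to 25.1 (arms 24.7) and their median width to 392.5 bp (arms 675.5 bp), and lowered the median percentile at equal width to 75.9; higher medians follow from the restriction itself, and the score difference from the arms nearly closes there. Within that list 7.83% of scaffold neighbours and 5.79% of arm neighbours were within 1 kb, so the lower scaffold share of the full list was gone. No interval was computed for these shares, so a turned order is not established. Merging peaks within 200 bp left 316 scaffold peaks and gave 4.53% of neighbours within 1 kb (arms 9.26%), 0.287% of pairs of equal width (arms 0.174%), a percentile of 82.7 and 78.2% of peaks alone. Without Uextra the median width was 339 bp, 20.6% of neighbours were within 1 kb (arms 20.4%) and 42.7% of peaks were alone (arms 19.8%), so the wider spacing at 1 kb rests on Uextra. Against isolated arm peaks the percentile was 80.7. A distance of 10 kb in place of 1 kb gave 17.6% (arms 62.6%), a width tolerance of 2 bp gave 1.63% (arms 0.846%), and chains joined at 5 and 20 kb left 78.5% and 64.8% alone. Where not stated, the cause was not tested. The alternatives of the percentile and of the share alone, and the spacing without Uextra, were chosen after seeing the data. No paired analysis was possible because peaks were deposited without values for single libraries, and no replicate could be left out.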

Other observations

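Along Uextra the peaks were spread more evenly than along any large arm. The 27 whole windows of 1 Mb held 8.26 ± 3.59 peaks (SD over windows), from 2 to 16, and the variance was 1.56 times the mean. For U the ratio was 5.86 over 9 windows, with 20 peaks in the window from 5 to 6 Mb, which contains the chain of 13. On X, 2L, 2R, 3L and 3R the ratio ran from 13.9 to 25.9. Windows are not replicates, and the order of fragments within Uextra is that of the collection, so these values describe the list only.

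The few close neighbours on Uextra were almost all immediate ones. Its 8 pairs with at most 3 kb between peaks had gaps from 54 to 406 bp, and 6 of the 8 gaps were 200 bp or less. On U the 20 such pairs had gaps from 57 to 2027 bp, 5 of them 200 bp or less. The Uextra peak of score 143 at 2128167 to 2128818 was followed after 84 bp by one of score 33.0 at 2128903 to 2129435.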
